A study of Arabidopsis thaliana with 8 samples.

Results

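The 38 probes described here stood highest in Arabidopsis seedlings that had both an ANAC096 construct and the hormone abscisic acid (ABA), out of 43603 probes on the array. They were chosen from group means of all 8 arrays. A probe's level is the log2 of its processed signal minus the 75th percentile of its array, so that 0 is the brightness of that percentile. Each member was at least 1.25 higher on this scale in ANAC096+ABA than in each of the other 3 groups, differed by at most 1 from control in either single treatment, and had a mean level of at least -6 in ANAC096+ABA. The differences between groups that follow therefore describe the choice, and limma's standard errors and calls on them are given as descriptions, not as tests of the members.

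Seedlings of the Col-0 accession were 12 days old and carried either the pTA empty vector or pTA-ANAC096. All groups received 30 µM dexamethasone (Dex), the steroid that switches on pTA transgenes, for 1 h, and no group was without it. Control was the empty vector with Dex alone, ANAC096 was the ANAC096 line with Dex alone, ABA was the empty vector with 2 µM ABA in the last 30 min, and ANAC096+ABA was the ANAC096 line with the same ABA. Each of the 4 groups had 2 one-colour arrays of whole-seedling RNA. Differences between the lines that preceded Dex cannot be told apart from the induction of ANAC096, and in whole seedlings fewer cells of a type cannot be told apart from less RNA per cell.

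ABA is a hormone that plants make under water shortage. It acts through receptors that inhibit PP2C phosphatases, which releases SnRK2 kinases to phosphorylate bZIP factors of the ABF/AREB family, and these bind ABA-responsive elements in promoters. NAC proteins are a large plant family of transcription factors, several of which are induced by drought, and the series asks about cooperation of ANAC096 with bZIP factors.

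The scanner files do not pair probes with genes, and 0 of the members' identifiers were in the gene table used here. Gene names, functions and the ANAC096 transcript itself were therefore not analysed here, and the members are numbered 1 to 38 from the largest to the smallest excess, the excess being the mean of ANAC096+ABA minus the highest of the other 3 group means. Only 2 identifiers are printed, those of member 8 and member 27.

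The 8 arrays shared 1 slide and 1 scan time. Between 75.6% and 80.2% of probes were well above background on each array and 0 spots were saturated. Replicate arrays correlated at r of 0.996 to 0.998 over all probes tested. Slide row 2 held the arrays with ABA and slide row 1 those without, and each line had its own slide columns. Position on the slide and group therefore cannot be told apart.

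The members fell apart by how the 2 ANAC096+ABA arrays behaved. Taken singly against the other groups' means, both arrays reached an excess of 1.25 for 27 members and 1 array alone did so for 11. Of the 11, replicate 2 was the high array for 8 and replicate 1 for 3. Member 38 was a near miss among them, at 1.30 on replicate 1 and 1.23 on replicate 2. In 32 of the 38 members both ANAC096+ABA arrays were above all 6 other arrays, a pattern that 14.5% of all 43603 probes had. In the other 6 the groups overlapped, so for them the label of highest with both treatments rested on 1 array.

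Signal over background separated the members further. Of the 38, 23 were well above background on all 8 arrays, and 9 were well above background on no array outside ANAC096+ABA. On the ANAC096+ABA arrays themselves, 30 were well above background on both and 8 on 1. The firm members, a set formed after their values were seen, are the 18 with an excess on both arrays and a measured signal on all 8.

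In these 18, the excess had a median of 1.42 and ranged from 1.30 to 2.27, that is a median of 2.67-fold and a range of 2.46-fold to 4.84-fold over the next highest group. The SD of the 2 ANAC096+ABA arrays had a median of 0.03 and was at most 0.23, as follows in part from requiring the excess on each array. The lower ANAC096+ABA array was 1.15 to 2.13 above the highest of the other 6 arrays.

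A_84_P12501 (member 8) had the largest excess of any member measured on all 8 arrays. Its level was -3.15 and -3.12 in control, -2.68 and -2.79 in ANAC096, -2.69 and -2.59 in ABA, and -0.28 and -0.46 in ANAC096+ABA. The 6 arrays without the combination lay between -3.15 and -2.59, with both control arrays lowest. Both arrays with the combination stood far above them, with no overlap. Its mean in ANAC096+ABA, -0.37 ± 0.13 (SD, n = 2), was 6.80-fold that of control, 5.14-fold that of ANAC096 and 4.84-fold that of ABA. The single treatments differed from control by 0.40 (ANAC096) and 0.49 (ABA), with a limma standard error of 0.08 for each difference. With each array set to its spike-in RNAs in place of the 75th percentile, ANAC096 was instead below control, at a difference of -0.18, ABA was 0.17 above it, and the excess was 2.53.

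A_84_P50780 (member 27) was the brightest member. Its level was -0.84 and -0.73 in control, -0.01 and -0.13 in ANAC096, 0.04 and 0.02 in ABA, and 1.33 and 1.44 in ANAC096+ABA. The 4 arrays of the single treatments lay between control and the combination, and no 2 of these 3 tiers overlapped. ANAC096 was 0.71 and ABA 0.81 above control, and ANAC096+ABA was 2.17 above it (limma standard error 0.07 for each). With spike-in scaling the single differences were 0.13 and 0.49. The mean of 1.38 ± 0.08 (SD, n = 2) in ANAC096+ABA was 4.49-fold that of control and 2.55-fold that of ABA.

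Of the 18 firm members, 10 were stepped, with both single treatments at least 0.5 above control. Relative to control, ANAC096 had a median difference of 0.72, ABA one of 0.71 and the combination one of 2.26. With spike-in scaling ANAC096 was above control in 9 of these 10, the exception being member 24, and ABA in all 10. The step was then smaller, with a median of 0.14 for ANAC096 (at most 0.40) and 0.39 for ABA (at most 0.49), so that all 10 had both single differences under 0.5. The division of members at single differences of 0.5 therefore did not hold with spike-in scaling. Members 9 and 10 had the largest combined differences of this kind, 3.002 and 2.97. Member 9 was at -5.997 and -5.79 in control, -5.09 and -4.94 in ANAC096, -5.25 and -5.06 in ABA, and -2.89 and -2.89 in ANAC096+ABA. Its single-treatment arrays overlapped each other and lay between the other groups. Member 10, a probe with 2 spots, was at -5.68 and -5.34 in control, -4.62 and -4.68 in ANAC096, -4.73 and -4.71 in ABA, and -2.57 and -2.52 in ANAC096+ABA. The same order of groups held there, with the ANAC096 arrays just above the ABA arrays.

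Members 21 and 24 were the next brightest stepped members after member 27. Member 21 was at -2.13 on both control arrays, -1.44 and -1.37 in ANAC096, -1.55 and -1.50 in ABA, and 0.08 and 0.11 in ANAC096+ABA. Member 24 was at -1.57 and -1.47 in control, -0.94 and -0.93 in ANAC096, -0.73 and -0.74 in ABA, and 0.65 and 0.68 in ANAC096+ABA. The 2 differed in which single treatment stood higher, ANAC096 for member 21 and ABA for member 24, and in each the ANAC096 and ABA arrays did not overlap. With spike-in scaling ABA stood higher in both.

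In 5 of the 18, members 8, 20, 22, 33 and 35, both single differences were under 0.5. In all of these but member 20, each single-treatment array was still above both control arrays. With spike-in scaling ANAC096 was below control in all 5, with the lowest difference, -0.52, in member 20, and ABA was below it in members 20 and 35. Their combined difference from control had a median of 1.66 and ranged from 1.58 to 2.76. Member 20 was the flattest, 0.06 above control in ANAC096 and 0.05 in ABA. It was at -5.72 and -5.65 in control, -5.65 and -5.60 in ANAC096, -5.82 and -5.46 in ABA, and -4.09 and -4.12 in ANAC096+ABA. The ABA arrays spanned those of control and ANAC096, and the combination stood apart. Member 33 was brighter, with -1.85 and -1.94 in control, -1.69 and -1.83 in ANAC096, -1.54 and -1.55 in ABA, and -0.25 and -0.24 in ANAC096+ABA.

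The remaining 3, members 19, 25 and 31, had ABA below control and ANAC096 above it, except that member 19 had ANAC096 below control, at -0.30, with spike-in scaling. Member 19 was at -5.00 and -5.08 in control, -4.74 and -4.77 in ANAC096, -5.69 and -5.64 in ABA, and -3.15 and -3.17 in ANAC096+ABA. Its groups did not overlap: ABA was lowest in the empty vector line, and in the ANAC096 line the arrays with ABA were highest. Member 31 was at -3.54 and -3.68 in control, -2.78 and -2.75 in ANAC096, -3.99 and -4.02 in ABA, and -1.42 and -1.49 in ANAC096+ABA, again with 4 groups that did not overlap. In member 25 the ABA level of -4.14 and -4.15 was close to the control level of -4.08 and -4.07. Its ANAC096 arrays were at -3.24 and -3.17 and its ANAC096+ABA arrays at -1.75 and -1.88.

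Among the 18, the group next below ANAC096+ABA was ANAC096 for 13 and ABA for 5, and the lowest group was control for 15 and ABA for 3. This order depended on the scaling. The E1A spike-ins, RNAs added to every sample, were higher relative to the 75th percentile in ANAC096 than in control, and setting each array to them moved ANAC096 minus control by -0.58 in all probes alike and ABA minus control by -0.32. On that scale ANAC096 was above control in 11 of the 18 and below it in 7, against 18 and 0 on the main scale. ABA was above control in 13 and below it in 5, against 15 and 3. The group next below the combination was then ABA for 13, control for 3 and ANAC096 for 2, and the lowest was control for 9, ANAC096 for 6 and ABA for 3. The combination remained highest in all 18 on that scale, by 1.51 to 2.53.

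By the rule, the combined difference from control exceeded the sum of the single log2 differences in the 23 members measured on all 8 arrays. This sum had a median of 1.28 in the 18 firm members, against a combined median of 2.18. The interaction, which is the combined difference minus that sum, ranged from 0.57 to 2.22 in them, with a median of 1.08, and from 0.48 to 2.22 in the 23. On the linear scale and with the 75th percentile scaling, in the 15 of the 18 with both single treatments above control, the rise of ANAC096+ABA over control was 2.36 to 26.5 times the sum of the single rises, with a median of 3.46. The rule demands at least 1.25 over ANAC096 and at most 1 between ABA and control, which fixed a positive interaction in advance. Where both single treatments were above control, the step of 1.25 over each also fixed a linear rise above the sum of the single rises. Only the sizes beyond these limits were free. Spike-in scaling moved the interaction of all probes by 0.83 and gave the 18 a range of 1.40 to 3.05.

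Limma was fitted on 34714 probes that some group measured above background on each of its arrays. The fit held 32 of the 38 members, 4 of them through ANAC096+ABA alone. At an adjusted p under 0.05 it called 27 of the 32 higher in ANAC096+ABA than in ABA, where 22.1% of all tested probes were called higher. It called 26 higher than in ANAC096 (22.2% of all probes) and 27 higher than in control (24.6%). The interaction was called higher for 22 of the 32 members, beside 23.4% of all probes. ANAC096 against control was called for 17 members, 16 higher and 1 lower, beside 59.3% of all probes in either direction. ABA against control was called for 17, 15 higher and 2 lower, beside 47.4%. All of these comparisons were used by the rule, so the counts are descriptions. Of the 8 tested members with an excess on 1 array only, 1 was called in the interaction and 3 in ANAC096+ABA against ABA. Of the 24 with an excess on both arrays these were 21 and 24. The split was by agreement of the ANAC096+ABA arrays, and their spread enters limma's standard errors. A difference in calls between the sets was therefore in part built in, and nothing is read from it.

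The 7 members with the largest excess were all dim outside the combination. Members 1 to 7 were well above background on no array of the other 3 groups, so the size of their step was not measured. Member 1 was at -10.24 and -10.31 in control, -9.90 and -9.88 in ANAC096, -9.43 and -9.65 in ABA, and -6.81 and -2.87 in ANAC096+ABA. The 2 ANAC096+ABA arrays were both above the rest, but differed from each other by 3.94. As a reference for a group, the lowest level well above background on each of its arrays was averaged. Member 1's mean in ANAC096+ABA was 5.54-fold the reference for ABA. The reference is not a strict upper limit for dimmer probes. Member 11, not well above background in ANAC096, was at -7.59 and -7.66 there, above the lowest such levels of -7.78 and -7.74. Replicate 2 carried the value of member 1, since replicate 1 alone was 1.41-fold and replicate 2 alone 21.7-fold the reference for ABA.

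Member 6 was the one of these 7 with 2 spots, and its arrays were close. It was at -8.76 and -10.14 in control, -8.98 and -9.78 in ANAC096, -8.41 and -8.94 in ABA, and -5.54 and -5.87 in ANAC096+ABA. Both ANAC096+ABA arrays were well above background, and the mean was 3.04-fold the reference for ABA and 5.34-fold that for control. Member 4 was also measured on both arrays, at -4.79 and -6.79. Its mean was 2.87-fold the reference for ABA, but 5.74-fold on replicate 1 alone and 1.44-fold on replicate 2 alone. Members 2, 3, 5 and 7 were well above background on 1 ANAC096+ABA array only. Members 15 and 16 were better measured, with both ANAC096+ABA arrays at -4.60 and -4.68 and at -4.63 and -4.55, and each was well above background on some arrays of other groups. In member 16 ANAC096 was the lowest group and not well above background, and the combination was 9.004-fold the reference for ANAC096.

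Probes had 1 or 2 spots on each array. Of all probes 58.6% had 1 spot and 41.4% had 2, and of the members 26 had 1 and 12 had 2. All 11 members with an excess on 1 array only had 1 spot, while the 12 members with 2 spots all had an excess on both arrays. In those 12 the SD of the ANAC096+ABA arrays was at most 0.23, and the spots of a probe differed by a median of 0.14 and at most 0.58 on those arrays. Over the 12913 probes with 2 spots and a level of at least -6 in ANAC096+ABA, the median difference between spots was 0.09. Number of spots was no part of the rule, and the level of a probe with 2 spots is their average. Whether members with 1 and 2 spots differ in replicate agreement was not tested.

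The 2 ANAC096+ABA arrays differed by over 1 in 14 members, the 9 most discordant of the 11 and members 1 to 5. Among all 31138 probes with a mean level of at least -6 in ANAC096+ABA, 0.283% differed this much. The rule used the mean of these arrays, so a probe that is very bright on 1 of them can enter. Member 11 showed the widest gap, with -8.02 on replicate 1 and -3.03 on replicate 2, against -7.59 to -8.63 on the other 6 arrays. Its replicate 1 array lay inside the range of the other groups. Member 14 showed the reverse, with -4.11 on replicate 1 and -7.86 on replicate 2. Member 17 was well above background on all 8 arrays and still discordant, at -6.10 and -2.50, against -5.71 to -6.15 on the other 6.

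Position on the array was a feature the rule did not use. Of the 14 discordant members, 10 were brighter on replicate 2 and 4 on replicate 1. Of those 10, 8 had their spot within the first 100 of 384 grid rows and the first 70 of 164 grid columns, an area bounded after the positions were seen that holds 11.1% of spots. The same area held 2 of the 4 that were brighter on replicate 1, members 4 and 5. It also held members 12, 29 and 34 and 1 spot of member 33, whose arrays did not differ by over 1. Members 11 and 37 were neighbours, in grid rows 81 and 80 of column 37. Around member 37, 8 of 14 neighbouring spots were over 1 brighter on replicate 2 than on replicate 1, with a median difference of 1.72, and around member 11 this held for 6 of 14. Around the spots of all 14, 32 of 186 neighbouring spots (17.2%) differed by over 1 in the member's direction. Without members 11 and 37 it was 18 of 158 (11.4%). Around the 36 spots of the other 24 members it was 12 of 488 (2.46%), and over all spots 1.80% were over 1 brighter on replicate 2 and 1.85% on replicate 1. The scanner's flags for outlier spots marked 0 of the 50 member spots on these arrays. The part of position in the discordant values was not tested.

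The rule was also applied to 1 replicate of each group, and the other replicate was then measured. The rule itself was set with earlier results of these data known, and all arrays shared 1 slide. The measuring arrays were therefore not independent of the choice, and the shares that follow are descriptions. On the replicate 1 arrays alone 54 probes met the rule. On the replicate 2 arrays ANAC096+ABA was again highest for 36 of them (66.7%), where 25.4% of all probes with a level of at least -6 there had it highest. The chosen probes were not held to that level on the arrays that measured them, so these shares and those that follow are over unlike sets. The excess of the 54 on replicate 2 had a median of 0.29 and ranged from -4.75 to 3.07. On the replicate 2 arrays alone 93 probes met the rule, and 47 of them (50.5%) had ANAC096+ABA highest on replicate 1, beside 25.5% of all such probes. Their excess on replicate 1 had a median of 0.04.

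The same 15 probes met the rule on each replicate alone. Such probes must also meet it on the group means, so all 15 were members by construction. They were 27.8% of the 54 and 16.1% of the 93, while 0.298% of all probes at that level met the rule on the replicate 2 arrays and 0.173% on the replicate 1 arrays. Among probes with 2 spots, ANAC096+ABA was again highest for 10 of 12 chosen on replicate 1 and 17 of 22 chosen on replicate 2. For probes with 1 spot it was 26 of 42 and 30 of 71. Whether the 2 kinds differ was not tested.

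The limit on single treatments removed more probes than it kept. An excess of 1.25 with a level of at least -6 was met by 181 of 43603 probes (0.415%), and 143 of these were left out because ANAC096 or ABA differed from control by over 1, in each case with at least 1 of them higher. Of the 143, 124 had the excess on both ANAC096+ABA arrays. A further 141 probes met all but the level of -6. For the excess, the members nearest the threshold were at 1.26 and 1.27 and the nearest probes outside at 1.249 and 1.24. For ANAC096 minus control the nearest values were 0.98 inside and 1.01 outside, for ABA minus control 0.90 inside and 1.15 outside, and for the level -5.99 inside and -6.01 outside.

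An excess on 1 array only also occurred in the other groups. Of probes with a mean excess of 1.25 over the other 3 groups and a level of at least -6, it was 30 of 181 (16.6%) for ANAC096+ABA without the limit on single treatments, 45 of 238 (18.9%) for ANAC096, 16 of 37 (43.2%) for ABA and 37 of 106 (34.9%) for control.

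The median excess of the firm members was smaller with normexp correction and in the authors' deposited values. Both differ from the main setting in the spot signal used as well as in background and normalization, and these choices were not separated. With normexp correction the excess of the 18 firm members had a median of 1.28 and a range of 0.77 to 2.11, and in the authors' deposited log2 values, which carry no background correction, a median of 1.30 and a range of 0.95 to 2.10. ANAC096+ABA was highest for all 38 members under both, but 15 members met an excess of 1.25 with normexp and 18 in the authors' values. Of the 18 firm members, 10 met it under each.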

How the data were processed

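Spot intensity values were deposited by the authors as 1 scanner file per array, extracted by Feature Extraction 10.7.1.1, per the file headers. Flags in the deposited files, marked 0 or 1 and of no other unit, gave spots well above background, saturated or outlying. The authors also deposited log2 values, which equal quantile-normalized log2 median signals within 1e-08 on all 8 columns, with column medians of 10.26 to 10.27. How that table was made is not given in the sources used here.

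The 75th percentile over all 62976 spots was subtracted from the log2 processed signals, and spots with no control role were averaged per probe. A probe counted as well above background on an array when all its spots did. The 4 group means were estimated in 1 model by limma 3.58.1 under R 4.3.3 (4 residual degrees of freedom, prior 1.98), with Benjamini-Hochberg adjustment at 0.05, after tests on simulated data. Standard errors come from limma; precision is limited by having 2 arrays a group. Groups and replicate numbers were read from titles. The submitters' design text calls the replicates biological without saying how they were grown, so errors measure the spread between arrays. Members and lists were chosen with earlier results of these data known. The rule for identifiers was the largest excess among members measured on all 8 arrays and the highest level in ANAC096+ABA. No mean signal was in the files, so normexp (offset 50) used median signals. The gene lists planned were not used, since no probe had a gene name.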

Additional observations from a re-analysis of the deposited data

Results flagged for a closer look

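For both probes given by identifier, limma's interaction of line and ABA passed its threshold. The interaction was 1.87 for A_84_P12501 and 0.64 for A_84_P50780 on the log2 scale, higher in the ANAC096 line. The rule used the differences these values are made of, so they are descriptions and add no support.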

How the results depend on the processing

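The count of 38 members changed most with the scaling and with the ANAC096+ABA arrays. It was 24 with normexp correction (15 of them members in the main setting), 220 with spike-in scaling (35 shared) and 23 when a signal above background was required on each of the 8 arrays. The authors' values also gave 38, of which 18 were shared. Leaving out 1 array gave 33 to 92 members, the highest without ANAC096+ABA replicate 1, and 63 without ANAC096+ABA replicate 2. The 27 members with an excess on both arrays were a split chosen after seeing the data. They became 15 with normexp correction (9 shared), 21 in the authors' values (10 shared) and 146 with spike-in scaling (26 shared). With quantile normalization there were 37 (26 shared) and with median scaling 27 (25 shared). The 15 probes that met the rule on each replicate alone became 13 with normexp correction (7 shared) and 17 in the authors' values (7 shared). They became 24 with quantile normalization (15 shared), 13 with median scaling (13 shared) and 101 with spike-in scaling (14 shared). With spike-in scaling ANAC096 against control was called for 6 members in place of 17, with 3 shared. ABA against control was called for 10 in place of 17, with 9 shared. That scaling moves these differences by -0.58 and -0.32 in all probes alike. Shares of all probes called are not given for this scaling or the replicate block, so these counts are descriptions only. Leaving out 1 array leaves a group with 1 array, so counts of calls from those fits are not given. Same-numbered arrays showed no large shared deviation: their deviations correlated at -0.08 to 0.06 between groups. This cannot show whether same-numbered samples were grown or processed together. With the replicate block, limma called 22 members in the interaction, 27 against ABA, 26 against ANAC096, 27 against control, 18 for ANAC096 against control and 18 for ABA against control, all within 1 of the fit without it. The excess of A_84_P12501 stayed between 2.10 and 2.53 and that of A_84_P50780 between 1.23 and 1.61 under the scaling, background, outlier-spot and leave-one-out settings. Signal over background limits 9 members, 1 to 7, 11 and 14, measured on no array outside the combination. It also limits members 12, 13, 15, 16, 26 and 28, each not well above background on some arrays.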
